A study of Mus musculus with 24 samples.

Results

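The mouse genes whose symbols are Zfp followed by a number were described here in bone marrow-derived basophils, in 125 members of 15737 genes in the deposited table. The members were chosen by their symbol and by a mean of at least 100 reads over the 24 libraries, and Zfp36 was left out. The table holds 349 genes with such a symbol other than Zfp36, of which 224 lay below that mean. Just inside it lay Zfp1 with a mean of 108.1 reads, Zfp369 with 104.0 and Zfp268 with 103.0. Just outside lay Zfp653 with 99.9, Zfp595 with 98.8 and Zfp386 with 97.7. The choice used the mean over both genotypes and all times, so the members' general level is a description, while differences between groups were not used.

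Basophils were grown from the bone marrow of wild-type (WT) mice and of TTP-KO mice, which lack tristetraprolin (TTP), in medium with IL-3. All 8 groups share the same handling: culture for 7 days at 0.3 ng/mL IL-3, IgE against the hapten TNP at 1 µg/mL and the uridine analogue s4U at 150 µM from day 6, bead enrichment of CD49b+ cells, and 1.5 h with TNP-OVA antigen at 10 ng/mL together with s4U. After washing the cells stood for 0, 1, 2 or 4 h with neither antigen nor s4U. Each genotype and time has 3 libraries of 3' mRNA tags, named here by the letters A to C of their columns, and every group had met antigen before 0 h. The sources used here name no strain, age or form of the TTP-KO allele. They also do not say whether libraries of 1 group stem from different mice or cultures, so the p-values reflect only library-to-library spread, possibly technical. The shares of s4U-labelled RNA were not used here, and the values below describe total RNA.

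Libraries held 8839260 to 25372890 reads, the smallest being KO 4 h B and, at 10878380, KO 4 h C. The basophil label held against its markers: all 14 basophil markers were detected, led by the granule proteases Mcpt8 and Prss34 at means of 13665 and 9693 CPM (the usual read count relative to library size, here with library sizes scaled by TMM, which sets libraries to a common level over genes). Their sum ran from 53055 to 55447 CPM at 0 h and from 36807 to 42933 CPM at 4 h, where the genotypes overlapped. At 1 h it was higher in KO (56935 to 57354 CPM against 53336 to 55479), as at 2 h (50675 to 53782 against 44863 to 46777). The sum includes Il4, at 355 to 6718 CPM over the libraries, and Itga2, the lowest of the 14 at a mean of 26.7. Of the NK and T cell markers, Cd3e and Ncr1 reached at most 5.24 and 4.95 CPM, while Gzmb and Nkg7 had means of 664 and 87.2 CPM. The sum of 20 monocyte and macrophage markers was higher in KO at each time, at 2367 to 2424 CPM against 936 to 1008 in WT at 0 h. At 4 h it was 1315 to 1691 against 601 to 621. Of these 20 markers 0 or 1 was at 0 in each group. The sum of 8 dendritic and B cell markers was also higher in KO at each time (305 to 326 CPM against 161 to 194 at 0 h, 216 to 274 against 130 to 171 at 4 h), with 1 to 3 of the 8 at 0 in each group. That of 5 mast cell markers was lower in KO at each time (128 to 156 against 236 to 253 at 0 h, 121 to 166 against 251 to 293 at 4 h). The sum of 8 neutrophil markers was lower in KO at 0 h (3427 to 3626 against 3936 to 4286) and higher at 4 h (3203 to 3330 against 2273 to 2531). The sum of 8 NK and T cell markers overlapped between the genotypes at 0 and 4 h. It was lower in KO at 1 h (674 to 846 against 929 to 1022) and at 2 h (562 to 624 against 644 to 733). The part of these differences in the results on the Zfp genes was not tested. Zfp36, which encodes TTP, still gave reads in KO libraries, at 223, 269 and 219 CPM in WT A, B and C at 0 h and 158, 210.0 and 186 in KO. At 1 h it stood at 147, 128 and 104 in WT and 36, 44.4 and 58.5 in KO, and the groups overlapped at 4 h. Whether 3' tags lie inside the deleted part is not known here, so this check is limited.

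Most Zfp genes encode proteins with C2H2 zinc fingers, short folds held by a zinc ion that stand in a row and read DNA, or in some members RNA. A large class adds a KRAB box, which recruits the co-repressor Trim28 (KAP1) and with it Setdb1 and heterochromatin, and is best known for silencing transposable elements and imprinted loci. Other members are GC-box factors, partners of co-repressor complexes, or proteins of ribosome assembly, ribosome quality control and splicing. Transcripts of DNA-binding regulators are often short-lived. TTP, in contrast, has fingers of the CCCH type that bind AU-rich elements in mRNA and promote decay, so it shares the symbol of this family but not its fold.

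The coding sequences of the 125 members in the GENCODE M21 annotation held 0 to 36 matches to the C2H2 finger pattern, with a median of 9. Zfp142 had the most (36), followed by Zfp236 (30) and Zfp646 (27), and 4 members had no match (Zfp330, Zfp703, Zfp839 and Zfp1001). A KRAB box pattern was matched in 46 members, with a median of 11 fingers, and not in 79, with a median of 7 fingers. The pattern is short and can miss boxes that differ from it, so the 79 were not shown to lack a KRAB box. By the same annotation 52 members lie next to another Zfp gene and 23 next to another member. Overlap with another gene of the table on the same strand was found for 9 members, among them Zfp91 with Cntf; whether tags fall in the shared stretch was not tested.

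Promoters are shown for 2 members that fell and 2 that rose from 0 to 4 h in both genotypes, so that sequences and levels can be read together; they were chosen after the values were seen. Windows of 250 bases upstream of the start, from RefSeq on GRCm38.p6, were found for 95 of the 125 members (119 windows). Searched on both strands were GGGCGG (the GC box, read by Sp1-type factors), TGANTCA (AP-1), TGACGTCA (the cAMP response element), CCGGAAGT (ETS factors) and the NRF1 motif, GCGCA and GCGC around 1 free base. Capitals mark matches on either strand. In these 4 windows they are GC boxes, read as CCGCCC on the other strand, and the NRF1 motif. Zfp281 lies at chr1:136624651-136624900 on the plus strand, and Zfp592 at chr7:80993434-80993683 on the plus strand. Zfp106 lies at chr2:120563860-120564109 on the minus strand and Zfp639 at chr3:32510342-32510591 on the plus strand.
Zfp281: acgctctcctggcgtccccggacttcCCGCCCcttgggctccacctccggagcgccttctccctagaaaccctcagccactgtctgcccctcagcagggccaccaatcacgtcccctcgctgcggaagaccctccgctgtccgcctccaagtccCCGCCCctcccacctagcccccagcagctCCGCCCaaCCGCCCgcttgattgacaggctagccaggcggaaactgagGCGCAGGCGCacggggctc
Zfp592: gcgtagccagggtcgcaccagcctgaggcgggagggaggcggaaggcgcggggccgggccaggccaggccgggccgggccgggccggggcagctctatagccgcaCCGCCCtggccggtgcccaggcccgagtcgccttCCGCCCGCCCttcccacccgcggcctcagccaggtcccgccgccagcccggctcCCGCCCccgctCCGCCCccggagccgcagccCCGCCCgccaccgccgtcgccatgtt
Zfp106: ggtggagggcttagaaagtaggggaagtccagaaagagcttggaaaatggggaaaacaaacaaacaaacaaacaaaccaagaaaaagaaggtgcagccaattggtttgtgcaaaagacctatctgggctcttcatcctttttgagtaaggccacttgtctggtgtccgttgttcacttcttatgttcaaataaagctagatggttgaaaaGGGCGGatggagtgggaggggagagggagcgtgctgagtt
Zfp639: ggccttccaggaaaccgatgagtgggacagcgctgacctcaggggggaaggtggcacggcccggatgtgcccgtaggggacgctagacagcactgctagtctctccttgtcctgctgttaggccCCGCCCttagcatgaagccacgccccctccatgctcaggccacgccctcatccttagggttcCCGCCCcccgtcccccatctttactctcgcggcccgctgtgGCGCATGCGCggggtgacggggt
Zfp281 held 4 GC boxes and 1 NRF1 match in a window of 69.6% G and C, and Zfp592 held 6 GC boxes at 81.6%. Zfp106 held 1 GC box at 45.6%, and Zfp639 held 2 GC boxes and 1 NRF1 match at 66.8%. The 2 members that fell and the 2 that rose thus share a GC box, and none of these 4 windows held an AP-1, cAMP response or ETS match. Among all member windows, 58.0% held a GC box, against 32.7% of the 32851 promoter windows searched. The cAMP response element was in 5.04% of member windows against 1.55% of all, the ETS motif in 6.72% against 2.88%, the NRF1 motif in 8.40% against 3.74%, and the AP-1 motif in 5.04% against 6.75%. The windows searched were not limited to genes with reads here, while the members were chosen by their reads. The part of this in the differences between the shares was not tested. These matches are a description of the letters and of no binding.

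The members were mostly of low abundance. Their mean level over the 24 libraries ran from 6.01 to 209.5 CPM with a median of 15.2, and 113 of 125 lay under 50 CPM. As each transcript gives a tag near its 3' end, CPM was not divided by length. Members with a KRAB pattern had a median of 10.1 CPM and those without one 17.7 CPM. Within a group of 3 libraries the median coefficient of variation was 32.4%, so small changes of single members were hard to see. All 125 passed the filter on low counts, and 11 of their values were 0 reads. Reads shared between genes are a further limit: 16.6% of the members' values were not whole, 17 members had 12 or more values that were not whole, and among these Zfp992 had 24, Zfp706 23, and Zfp991 and Zfp993 22 each of 24. Levels of such members may hold reads of near-identical copies.

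The most abundant member was Zfp706, which encodes a short protein with 1 finger match. WT libraries stood at 191, 184 and 251 CPM at 0 h, 224, 289.5 and 209 at 1 h, 217, 219 and 259.6 at 2 h and 176, 119 and 146 at 4 h. KO libraries stood at 195, 154 and 177 at 0 h, 290.2, 251 and 275 at 1 h, 250.4, 255 and 253 at 2 h and 133, 159 and 151 at 4 h. The 3 WT libraries at 4 h lay below the 3 at 0 h, and the KO libraries at 1 and 2 h above those at 0 h. Next came Zfp91, an E3 ubiquitin ligase of the non-canonical NF-kB pathway, at a mean of 145.9 CPM, Zfp608, described as a repressor of the Rag genes in thymocytes, at 139.6, Zfp207, a spindle assembly and Bub3-binding protein, at 138.2, and Zfp281, a GC-box-binding transcription factor, at 100.9.

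The share of each library's reads on the 125 genes was lowest right after the antigen pulse. At 0 h it was 0.255% ± 0.016 in WT and 0.249% ± 0.009 in KO (SD, n = 3), and the 6 libraries ran from 0.239% to 0.270%. At 1 h it was 0.330% ± 0.016 in WT and 0.313% ± 0.002 in KO, at 2 h 0.352% ± 0.022 and 0.335% ± 0.014, and at 4 h 0.342% ± 0.009 and 0.338% ± 0.009. The lowest of the 18 later libraries stood at 0.311%, above the highest 0 h library. WT and KO libraries overlapped at each time. In bulk libraries fewer cells of a type and less RNA per cell cannot be told apart. This share is not scaled by TMM. With library size alone as the scale, the median of all genes itself rose by 0.26 (WT) and 0.23 (KO) at 2 h and by 0.38 and 0.45 at 4 h on the log2 scale, so the changes below, scaled by TMM, are given beside those of all genes.

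**Figure D1:**
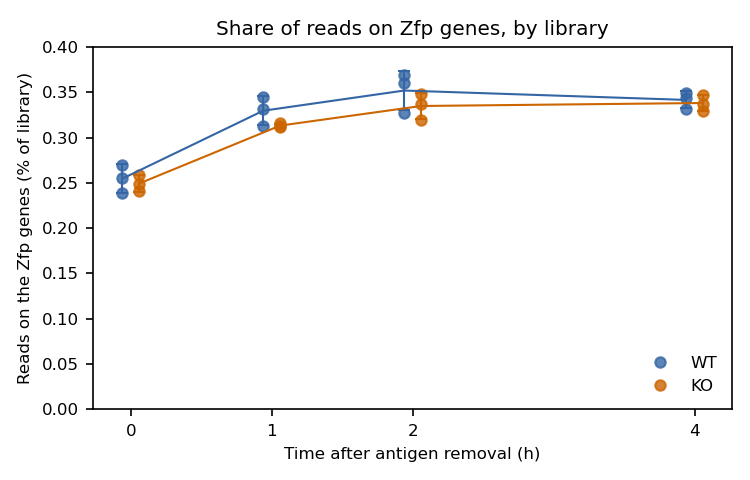
Share of each library's reads (percent) on the 125 Zfp genes, by hours after antigen removal, for WT and KO. Points are libraries and bars are mean ± SD of 3 libraries; the 6 libraries of 0 h lie between 0.239% and 0.270%, below the 18 later ones.

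In both genotypes the members as a group stood higher after 0 h than the genes tested as a whole. In WT the median log2 change of the 125 members was 0.31 at 1 h, 0.37 at 2 h and 0.26 at 4 h, beside 0.00, 0.01 and 0.06 for the 12936 genes tested. In KO it was 0.32, 0.38 and 0.40, beside 0.00, 0.02 and 0.08. At 1 h 89 of 125 members had a positive change in WT and 88 in KO (71.2% and 70.4%, against 49.7% and 47.2% of all genes). The 8130 other genes with a mean of at least 100 reads had medians of -0.02 to 0.04 in the 6 changes; they share the read minimum and were not matched to the members' level. The 3 changes of a genotype share their 0 h libraries, so they are not independent of each other. Over the alternative settings and left-out libraries, the members' median minus that of all genes stayed between 0.17 and 0.42 in WT and between 0.24 and 0.50 in KO.

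Few members passed the test on their own. In WT, 0 of 125 were called at 1 h against 2.33% of all genes (edgeR quasi-likelihood, adjusted p under 0.05; 20 members had an unadjusted p under 0.05, and DESeq2 called 4). At 2 h 8 were called (6.4% of members, 10.0% of all genes), 6 higher (3.58% of all genes were called higher) and 2 lower (6.47%). At 4 h 14 were called (11.2%, against 16.7%), 6 higher (6.76%) and 8 lower (9.97%). In KO, 2 were called at 1 h (1.6%, against 2.74%), both higher (1.23%). At 2 h 9 were called (7.2%, against 9.89%), 7 higher (4.12%) and 2 lower (5.77%), and at 4 h 17 (13.6%, against 18.1%), 10 higher (7.45%) and 7 lower (10.6%). The split by direction depended on the scale: with library size alone 22 members were called in WT at 4 h, 19 higher and 3 lower, and 32 in KO, 28 higher and 4 lower. DESeq2 called 6 members in KO at 1 h, 16 at 2 h and 26 at 4 h. In all 25 members were called in at least 1 change from 0 h, against 26.7% of all genes, and 100 in none.

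**Figure D2:**
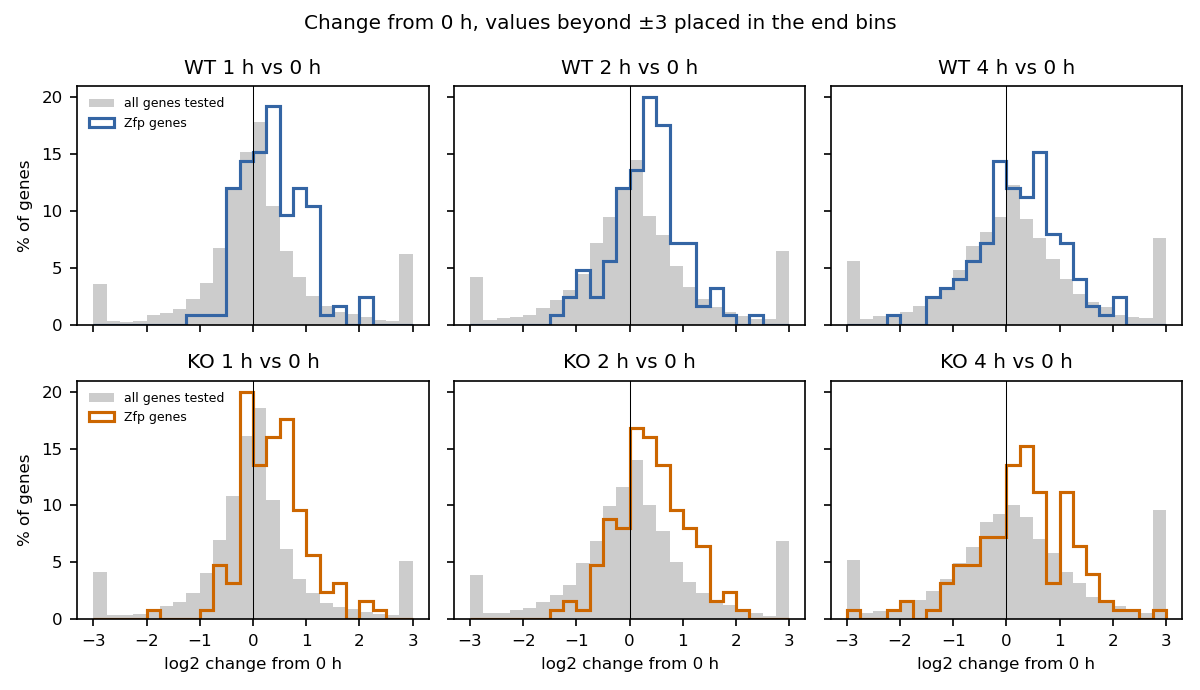
Distribution of log2 changes from 0 h at 1, 2 and 4 h in WT (top) and KO (bottom), as percent of genes per bin, for the 125 Zfp genes (outlines) and all 12936 genes tested (grey). The outlines are shifted to the right but overlap the grey bars, with member medians of 0.26 to 0.40 against 0.00 to 0.08. Values beyond ±3 are placed in the end bins.

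By group means, 62 members in WT and 65 in KO had their lowest level at 0 h, and 14 and 15 their highest. The highest level lay at 1 h for 37 members in WT and 32 in KO, at 2 h for 40 and 35, and at 4 h for 34 and 43. These positions rest on means of 3 libraries and were not tested. They were not counted over all genes, so whether they are particular to the members is not known here. Members with a KRAB pattern had a median change of 0.50 in WT and 0.47 in KO at 1 h, and those without one 0.24 and 0.25. At 4 h the medians were 0.31 (KRAB) and 0.17 in WT, and 0.45 and 0.40 in KO. The difference between these classes was not tested.

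Of 28 listed DNA-binding regulators and partners, 22 were members, none with a match to the KRAB pattern. Among them Zfp281 fell in both genotypes. Zfp281 (ENSMUSG00000041483), a factor with 3 finger matches known from stem cell self-renewal, stood at 162, 154 and 167 CPM in WT at 0 h, 130.2, 133 and 142 at 1 h, 87.8, 54.4 and 53.1 at 2 h and 42, 30.2 and 30.1 at 4 h. In KO it stood at 164, 179 and 147 at 0 h, then 172, 169.6 and 121 at 1 h, then 70.9, 59.1 and 51.1 at 2 h and then 49, 12.6 and 41.7 at 4 h. In both genotypes all 2 h and 4 h libraries lay below all 0 h libraries. The log2 change (± standard error, edgeR, here and below) to 2 h was -1.30 ± 0.25, adjusted p = 0.000179 in WT and -1.43 ± 0.25, adjusted p = 3.94e-05 in KO. To 4 h it was -2.24 ± 0.26, adjusted p = 2.21e-09 in WT and -2.24 ± 0.26, adjusted p = 2.04e-09 in KO. The call held without any 1 library, with log2 changes to 4 h of -2.42 to -2.15 in WT and -2.56 to -1.84 in KO. The KO change minus the WT change was 0.00, with a 95% interval of -0.72 to 0.71. Its promoter, printed above, held 4 GC boxes.

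Zfp148, the close relative of Zfp281 that binds similar GC-rich sites, did not share this fall. Its WT libraries stood at 34.4, 26 and 33.6 CPM at 0 h, 71.4, 48.7 and 59.2 at 2 h and 35.6, 36.2 and 63.6 at 4 h. Its KO libraries stood at 44.7, 33.3 and 56.2 at 0 h, then 53.7, 44.8 and 46.9 at 2 h and then 39.5, 33.5 and 32.7 at 4 h. In WT it rose by 2 h (0.93 ± 0.26, adjusted p = 0.0131), a call lost without WT 0 h B or WT 2 h A (0.82 and 0.80). At 4 h the log2 change was 0.53 ± 0.26, adjusted p = 0.181 in WT and -0.34 ± 0.26, adjusted p = 0.398 in KO, neither past the threshold.

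Zfp608 stood high through 1 h and lower after it. WT libraries stood at 159, 146 and 161 CPM at 0 h, 192, 208 and 222 at 1 h, 64, 106 and 108 at 2 h and 118, 81.9 and 89.1 at 4 h. KO libraries stood at 149, 168 and 197 at 0 h, then 173, 225 and 214 at 1 h, then 139, 114 and 91.7 at 2 h and then 92.1, 67 and 64 at 4 h. At 4 h the libraries of each genotype lay below those of 0 h. The log2 change to 4 h was -0.69 ± 0.19, adjusted p = 0.00591 in WT and -1.20 ± 0.19, adjusted p = 2.09e-06 in KO. With library size alone as the scale the WT value was -0.37 and lost its call. The 2 h falls, -0.74 ± 0.19, adjusted p = 0.00458 in WT and -0.58 ± 0.19, adjusted p = 0.0364 in KO, were lost without WT 2 h A (-0.52) in WT and without KO 0 h B, KO 0 h C, KO 2 h B or KO 2 h C (-0.59 to -0.44) in KO. The genotypes' changes to 4 h differed by -0.51 ± 0.26 (adjusted p = 0.585), with a 95% interval of -1.04 to 0.02.

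Zfp592, which works with Zmynd8 and Zfp687 in a transcriptional complex, was lower at 4 h than at 0 h in both genotypes. Its WT libraries were at 61.7, 48.9 and 52.2 CPM at 0 h and 28.7, 15.3 and 22.8 at 4 h, its KO libraries at 52.5, 39.7 and 46.7 at 0 h and then 29.2, 11.7 and 28.6 at 4 h. Neither pair of groups overlapped. The log2 change was -1.28 ± 0.31, adjusted p = 0.0016 in WT and -0.99 ± 0.31, adjusted p = 0.0155 in KO, where the call was lost without KO 0 h A or KO 4 h B (-0.90 and -0.67). Of the other listed regulators that fell, Zfp703, a co-repressor of the NET family, was at 29.2, 28.4 and 31.6 CPM in WT at 0 h and 17.7, 3.10 and 17.1 at 4 h (-1.23 ± 0.41, adjusted p = 0.0302), a call lost without WT 0 h C or WT 4 h B (-1.19 and -0.77) and with DESeq2 (-1.23, adjusted p = 0.0726). Its KO libraries went from 49.1, 35.1 and 52.8 to 31.5, 25.6 and 9.49 (-1.04 ± 0.41, adjusted p = 0.0701). Zfp516, a regulator of brown fat genes, was called in KO at 4 h (-1.24 ± 0.45, adjusted p = 0.0482) with libraries at 18.3, 23.9 and 28.6 at 0 h and then 10.9, 13.8 and 5.22 at 4 h, and lost the call without KO 0 h A, KO 0 h B, KO 0 h C, KO 4 h A or KO 4 h C (-1.40 to -0.93).

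Other listed regulators rose. Zfp91, whose reads may include Cntf, was at 133, 97.8 and 106 CPM in WT at 0 h, 144, 165 and 183 at 2 h and 139, 156 and 152 at 4 h. In KO it was at 93, 94 and 125 at 0 h, then 218, 195 and 158 at 2 h and then 172, 143 and 175 at 4 h, with the later libraries above those of 0 h in both genotypes. The KO log2 change was 0.87 ± 0.16, adjusted p = 0.000116 at 2 h and 0.65 ± 0.16, adjusted p = 0.0025 at 4 h. The WT change of 0.55 ± 0.16, adjusted p = 0.021 at 2 h was lost without WT 0 h B, WT 0 h C, WT 2 h B or WT 2 h C (0.46 to 0.54), and at 4 h it was 0.41 ± 0.16, adjusted p = 0.0799. The latter passed with DESeq2 (0.42, adjusted p = 0.0248), without WT 0 h A (0.55, adjusted p = 0.0381) and with library size alone (0.73, adjusted p = 0.000655). Zfp217, a partner of the CtBP and CoREST co-repressors, was at 19, 15.3 and 13.6 CPM in KO at 0 h and 41.8, 33.1 and 52 at 4 h (1.41 ± 0.32, adjusted p = 0.0008). In WT it was at 19.4, 31.4 and 20.6 at 0 h and then 25, 53.2 and 52.1 at 4 h (0.87 ± 0.31, adjusted p = 0.0502), where library A at 4 h lay within the range of 0 h. Its 2 h calls (log2 change 1.01 in WT and 1.06 in KO) were lost without WT 0 h A, WT 0 h C, WT 2 h B or WT 2 h C (0.86 to 0.94) in WT and without KO 0 h B, KO 0 h C, KO 2 h A or KO 2 h C (0.96 to 1.05) in KO.

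Zfp513 was called in WT at 2 h, with libraries at 11.5, 9.28 and 24.2 CPM at 0 h and 33.9, 59.4 and 34.6 at 2 h (1.50 ± 0.34, adjusted p = 0.00151); an antisense gene, Snx17, overlaps it and the counting's use of strand is not given. In KO its libraries stood at 22.4, 23.8 and 28.4 at 0 h and then 37, 33.7 and 22 at 2 h (0.32 ± 0.33, adjusted p = 0.672). Zfp523, a relative of Zfp143, was called in KO at 4 h, from 4.30, 17.7 and 11.4 CPM to 49, 24.5 and 37.1 (1.73 ± 0.49, adjusted p = 0.00779), a call lost without KO 0 h A (1.34). Zfp512 was called there as well, from 11.4, 5.06 and 5.99 to 15.1, 46.5 and 26.7 (1.97 ± 0.62, adjusted p = 0.0184), and lost the call without KO 0 h B, KO 0 h C or KO 4 h B (1.49 to 1.83). Listed regulators with no call in edgeR with TMM included Zfp143, a factor of small nuclear RNA gene promoters, with a log2 change to 4 h of -0.07 ± 0.42, adjusted p = 0.97 in WT and -0.16 ± 0.42, adjusted p = 0.865 in KO. Zfp335, needed for lymphocyte maturation, was at 0.83 ± 0.43, adjusted p = 0.197 and 0.42 ± 0.42, adjusted p = 0.554. Zfp318, required for IgD expression in B cells, was at 0.33 ± 0.52, adjusted p = 0.763 and 1.08 ± 0.52, adjusted p = 0.153. Zfp410, an activator of the chromatin remodeller gene Chd4, was at -0.81 ± 0.71, adjusted p = 0.504 and 0.43 ± 0.71, adjusted p = 0.755. With library size alone as the scale, Zfp335 in WT (1.15, adjusted p = 0.0484) and Zfp318 in KO (1.44, adjusted p = 0.0404) were called. Over the 22 regulators, 0 were called higher and 4 lower in WT at 4 h, with a median log2 change of 0.04, and 4 higher and 4 lower in KO, with a median of 0.42. Beside these stand 6.76% higher and 9.97% lower of all genes in WT and 7.45% and 10.6% in KO.

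**Figure D3:**
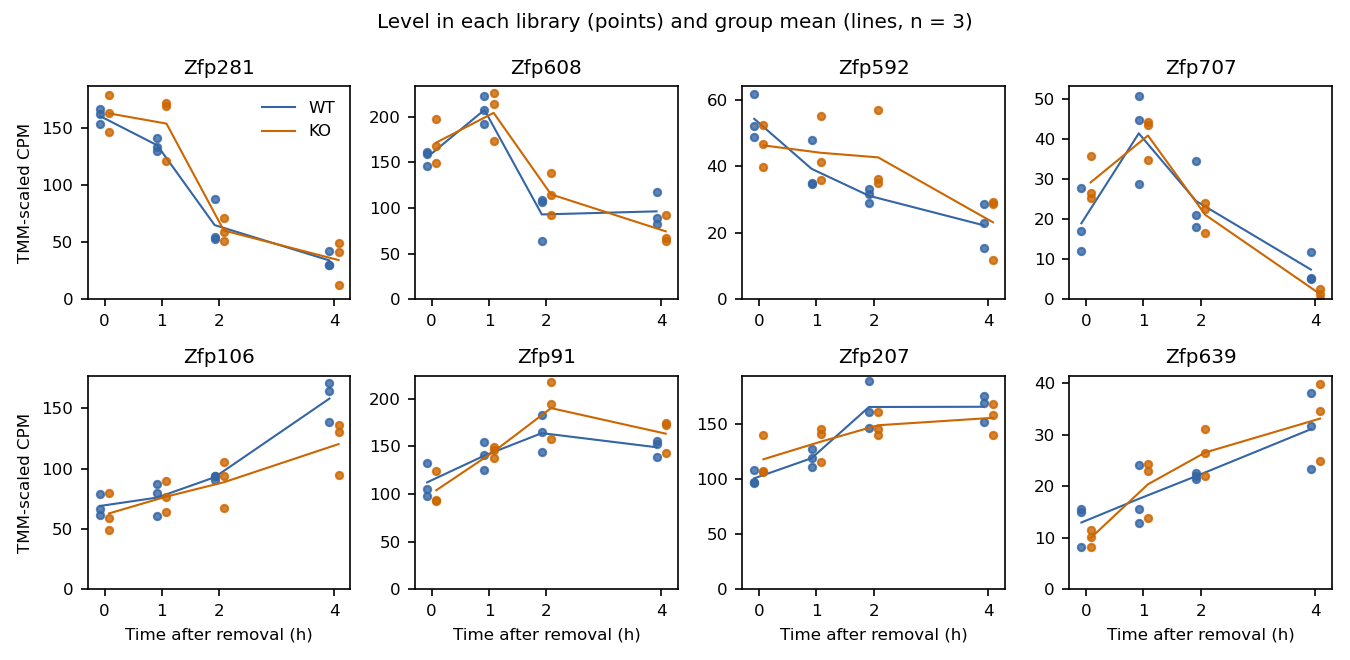
TMM-scaled CPM of 8 Zfp genes in each library (points) and the mean of 3 libraries (lines) against hours after antigen removal, for WT and KO. Zfp281 goes from 154 to 167 CPM in the 3 WT libraries at 0 h to 30.1 to 42 at 4 h, while Zfp106 goes from 61.4 to 79.3 to 139 to 171.

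Members that act on RNA, ribosomes or the spliceosome included 10 of 11 listed genes, and 3 of these rose in WT by 4 h and none fell, with a median log2 change of 0.71. In KO 1 rose and none fell, with a median of 0.40. Of all genes tested, 6.76% were called higher and 9.97% lower in WT, and 7.45% and 10.6% in KO. Zfp106 (ENSMUSG00000027288), an RNA-binding protein needed in motor neurons and muscle, was at 66.3, 61.4 and 79.3 CPM in WT at 0 h, 61, 79.6 and 87.4 at 1 h, 94.1, 90.4 and 94.1 at 2 h and 165, 139 and 171 at 4 h. KO libraries were at 49.2, 59.2 and 80.1 at 0 h, then 64.3, 89.9 and 76.3 at 1 h, then 105, 93.5 and 67.4 at 2 h and then 136, 94.5 and 130.4 at 4 h. At 4 h each genotype's libraries lay above those of 0 h. The log2 change to 4 h was 1.20 ± 0.20, adjusted p = 1.03e-05 in WT and 0.94 ± 0.20, adjusted p = 0.000391 in KO, and both calls held without any 1 library. At 4 h the 3 KO libraries lay below the 3 WT libraries, and KO minus WT was -0.39 ± 0.20 (adjusted p = 0.439), with a 95% interval of -0.80 to 0.01.

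Zfp207 was at 96, 97.2 and 108 CPM in WT at 0 h, 189, 146 and 160.5 at 2 h and 175, 152 and 169 at 4 h, with no overlap between 0 h and either later time. In KO it was at 106, 107 and 140.1 at 0 h, then 145, 140.1 and 161 at 2 h and then 139.8, 168 and 158 at 4 h, where 1 library of 0 h reached into the later range. The WT log2 change to 4 h was 0.72 ± 0.16, adjusted p = 0.000639, and the KO change was 0.40 ± 0.16, adjusted p = 0.073. Without KO 0 h C the KO change was 0.54 and without KO 4 h A 0.49, and both then passed, as it did with DESeq2. The genotypes' changes differed by -0.32 ± 0.22 (adjusted p = 0.79), so they were not shown to differ. Zfp593, a factor of large ribosomal subunit assembly, went from 9.62, 5.82 and 1.80 CPM to 34.7, 20.3 and 15.9 in WT (2.04 ± 0.57, adjusted p = 0.00743) and from 13.5, 16.6 and 2.79 to 20.1, 24 and 22.8 in KO (1.02 ± 0.55, adjusted p = 0.201). The WT call was lost without WT 0 h C or WT 4 h A (1.61 and 1.66). Zfp598, the ubiquitin ligase that marks collided ribosomes, was at 7.88, 9.62 and 8.37 CPM at 0 h and 23.1, 16.7 and 21.4 at 4 h in WT (1.24 ± 0.54, adjusted p = 0.121; DESeq2 called it), and had a KO change of 0.40 ± 0.54, adjusted p = 0.683. Zfp622, which acts in maturation of the large ribosomal subunit, had changes of 0.14 ± 0.25, adjusted p = 0.811 in WT and 0.01 ± 0.26, adjusted p = 0.995 in KO, with 95% intervals of -0.37 to 0.65 and -0.50 to 0.53. Zfp638, a nuclear silencing factor, was at 0.13 ± 0.30, adjusted p = 0.857 and 0.49 ± 0.30, adjusted p = 0.265. Zfp326, of a splicing complex at RNA polymerase II, was at -0.86 ± 0.68, adjusted p = 0.444 and -0.02 ± 0.68, adjusted p = 1. Zfp346, a double-stranded RNA-binding protein, was at 0.78 ± 0.61, adjusted p = 0.437 and -0.97 ± 0.62, adjusted p = 0.287.

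Of the 46 members with a KRAB pattern, 6 were called in at least 1 change, and of the 79 without it 19; the difference between these classes was not tested, and 26.7% of all genes were called in at least 1 change. Of 7 listed KRAB genes known to silence repeats or imprinted loci, 2 were members; Zfp57 had a mean of 8.92 reads and was not one. Zfp445 (ENSMUSG00000047036), which maintains genomic imprints, was at 30.2, 23 and 10.9 CPM at 0 h, 43, 35.8 and 52.5 at 2 h and 36.7, 36.4 and 26.9 at 4 h in WT. In KO it was at 17.7, 11.6 and 11.7 at 0 h, then 39.4, 23.3 and 27 at 2 h and then 37.3, 18.1 and 34.3 at 4 h, with 4 h above 0 h in each library. The log2 change was 1.03 ± 0.35, adjusted p = 0.0481 in WT and 1.13 ± 0.35, adjusted p = 0.0288 in KO at 2 h, and 1.13 ± 0.35, adjusted p = 0.017 in KO at 4 h. These calls were lost in some runs that left out 1 library, while the change stayed positive. The WT call was lost without WT 0 h B, WT 0 h C, WT 2 h A or WT 2 h C (0.72 to 1.09). Likewise the KO 2 h call was lost without KO 0 h B, KO 0 h C or KO 2 h A (0.90 to 1.03) and the KO 4 h call without KO 0 h B, KO 0 h C, KO 4 h A or KO 4 h C (0.96 to 1.03). Zfp809, which silences murine leukaemia proviruses, was low, at 8.88, 5.21 and 8.42 CPM in WT at 0 h and 7.91, 5.94 and 4.92 in KO, with changes to 4 h of 0.22 ± 0.77, adjusted p = 0.926 and 0.18 ± 0.77, adjusted p = 0.928 and intervals wider than 1.3 on either side.

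Zfp52 (14 fingers and a KRAB pattern) was the member that rose most by 1 h among those called. Its KO libraries stood at 19.7, 4.12 and 3.13 CPM at 0 h and 35.6, 41.9 and 34.2 at 1 h (2.04 ± 0.44, adjusted p = 0.00229), and its WT libraries at 12.7, 12.9 and 13.5 at 0 h and then 23.8, 31.3 and 28.4 at 1 h (1.09 ± 0.43, adjusted p = 0.231). The KO 0 h libraries were uneven, with A above the others. Without KO 0 h A the change was 3.36 and without KO 0 h C 1.64, and the call held. Its KO change at 4 h was 1.27 ± 0.43, adjusted p = 0.0307, a call lost without KO 0 h B, KO 0 h C, KO 4 h A or KO 4 h C (0.87 to 1.25). At 2 h it was 1.50 ± 0.43, adjusted p = 0.0158, a call lost without KO 0 h B or KO 0 h C (1.15 and 1.10). The other member called at 1 h was Zfp706 in KO (0.63 ± 0.15, adjusted p = 0.0102), lost without KO 0 h B or KO 1 h A (0.55 and 0.58). In KO at 2 h it stood 0.53 ± 0.15, adjusted p = 0.0184 above 0 h, lost without KO 0 h B (0.44). In WT at 4 h it was lower (-0.51 ± 0.15, adjusted p = 0.015), lost without WT 0 h C or WT 4 h B (-0.35 and -0.38) and with library size alone (-0.19). In WT at 1 h no member was called by edgeR; Zfp513 (log2 change 1.11, adjusted p = 0.0691) and Zfp148 (0.85, adjusted p = 0.0778) were nearest, and DESeq2 called both together with Zfp160 and Zfp217.

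Zfp707 and Zfp715, both with a KRAB pattern, were lower at 4 h in both genotypes. Zfp707 (ENSMUSG00000034429) was at 17.2, 12.1 and 27.7 CPM in WT at 0 h, 28.8, 44.9 and 50.8 at 1 h, 34.6, 21 and 18.1 at 2 h and 5.42, 4.94 and 11.9 at 4 h. In KO it was at 25.3, 35.8 and 26.6 at 0 h, then 44.4, 43.6 and 34.9 at 1 h, then 16.6, 24.1 and 22.6 at 2 h and then 2.62, 0 and 1.27 at 4 h, the 3 values at 4 h resting on 48, 0 and 16 reads. A count of 0 in KO 4 h B allows up to 0.29 CPM (3 counts, counting error only). The log2 change to 4 h was -1.36 ± 0.48, adjusted p = 0.0424 in WT and -4.40 ± 0.55, adjusted p = 1.51e-08 in KO. The WT call was lost without WT 0 h A, WT 0 h C, WT 4 h A or WT 4 h B (-1.42 to -0.98), the KO call under no left-out library (-5.42 to -3.88). Zfp715 was at 30.5, 34.5 and 34.7 CPM at 0 h and 13.2, 21.6 and 13.5 at 4 h in WT, and at 40.2, 44.3 and 49.2 at 0 h and then 21.1, 3.78 and 9.02 at 4 h in KO. The 4 h libraries lay below those of 0 h in both. Its change was -1.05 ± 0.37, adjusted p = 0.0441 in WT, lost without WT 0 h A, WT 0 h B, WT 0 h C, WT 4 h A or WT 4 h C (-1.11 to -0.92). The KO change was -1.97 ± 0.38, adjusted p = 8.77e-05, which held without any 1 library but dropped out with libraries B and C of KO 4 h both removed (-1.08, adjusted p = 0.141). Zfp991, a KRAB member with 22 of 24 values not whole, rose in WT from 17.8, 6.64 and 13.3 to 20.6, 35.3 and 40.9 CPM (1.36 ± 0.40, adjusted p = 0.0117), lost without WT 0 h B or WT 4 h C (1.05 and 1.16). Its KO change was 0.22 ± 0.39, adjusted p = 0.771. Zfp282 rose in KO from 3.56, 4.41 and 8.58 to 12.9, 26 and 24.8 CPM (1.95 ± 0.58, adjusted p = 0.0123), lost without KO 0 h A or KO 0 h B (1.71 and 1.81).

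The remaining called members lie outside these lists. Zfp639 was at 15, 15.6 and 8.26 CPM at 0 h, 22.1, 22.5 and 21.3 at 2 h and 23.4, 31.7 and 38.2 at 4 h in WT, and at 8.18, 10.1 and 11.5 at 0 h, then 22, 31.2 and 26.5 at 2 h and then 39.9, 24.9 and 34.7 at 4 h in KO, with all later values above those of 0 h. Its change to 4 h was 1.26 ± 0.38, adjusted p = 0.0146 in WT, lost without WT 0 h C or WT 4 h C (1.02 and 1.10), and 1.74 ± 0.39, adjusted p = 0.000565 in KO, which held without any 1 library. The KO change at 2 h was 1.42 ± 0.38, adjusted p = 0.00915, lost without KO 0 h A or KO 2 h B (1.30 and 1.29). Zfp740, overlapped by the antisense gene Csad, was at 11, 13.5 and 6.93 CPM at 0 h and 15.3, 40.8 and 43.1 at 4 h in WT (1.66 ± 0.44, adjusted p = 0.00462) and at 6.80, 9.65 and 11.3 at 0 h and then 16.9, 31.5 and 21.1 at 4 h in KO (1.32 ± 0.44, adjusted p = 0.0261). The KO call was lost without KO 0 h A, KO 0 h B or KO 4 h B (1.05 to 1.35), and that at 2 h (log2 change 1.42) without KO 0 h A, KO 0 h B or KO 2 h C (1.24 to 1.45). Zfp451, a SUMO ligase, fell in WT from 50.0, 30.3 and 52.5 to 27.2, 9.89 and 18.7 CPM (-1.25 ± 0.34, adjusted p = 0.00588), lost without WT 4 h B (-0.94), with a KO change of -0.86 ± 0.34, adjusted p = 0.066. Zfp367, an activator of globin genes, was at 30.5, 27.2 and 33.7 CPM at 0 h and 16.5, 0 and 8.78 at 4 h in KO (-1.84 ± 0.57, adjusted p = 0.0178), with KO 4 h B at 0 reads. Without KO 4 h B its change was -1.26, and it was still called; with library size alone (-1.48), DESeq2 (-1.83) or only the groups compared (-1.86) it was not.

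Both genotypes called 8 members at 4 h, 57.1% of the 14 WT calls and 47.1% of the 17 KO calls, all in the same direction: Zfp106, Zfp639 and Zfp740 higher, and Zfp281, Zfp592, Zfp608, Zfp707 and Zfp715 lower. Over all genes 1454 were called in both, 67.2% of the WT calls and 62.2% of the KO calls, and 1453 of them in the same direction. The genotypes share no library, and their changes come from separate sets of 6. All groups were tested in the same fit, which shares its estimate of each gene's spread. The calls of the genotypes are therefore not independent. With the 2 smallest libraries, KO 4 h B and C, removed together and A left alone, 9 of the 17 stayed called (Zfp91, Zfp106, Zfp217, Zfp281, Zfp445, Zfp523, Zfp608, Zfp639 and Zfp707) and 8 did not (Zfp52, Zfp282, Zfp367, Zfp512, Zfp516, Zfp592, Zfp715 and Zfp740). In that fit the lone library was assumed to vary like the other groups. With library size alone as the scale, the falls to 4 h of Zfp608, Zfp703, Zfp706, Zfp707 and Zfp715 in WT and of Zfp367, Zfp516 and Zfp592 in KO lost their calls, as did that of Zfp608 at 2 h in both. Each kept its sign. Of the members listed for their known roles, some not called at 4 h with TMM were called higher on that scale. They were Zfp91, Zfp148, Zfp335, Zfp445 and Zfp598 in WT and Zfp207, Zfp318 and Zfp638 in KO. The larger counts given above for that scale include further members that are not named here. In a fit of only the groups compared, Zfp703 and Zfp707 in WT at 4 h, Zfp445 in WT at 2 h, Zfp52 in KO at 2 h, and Zfp52, Zfp367, Zfp445, Zfp516, Zfp592 and Zfp740 in KO at 4 h lost theirs.

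**Figure D4:**
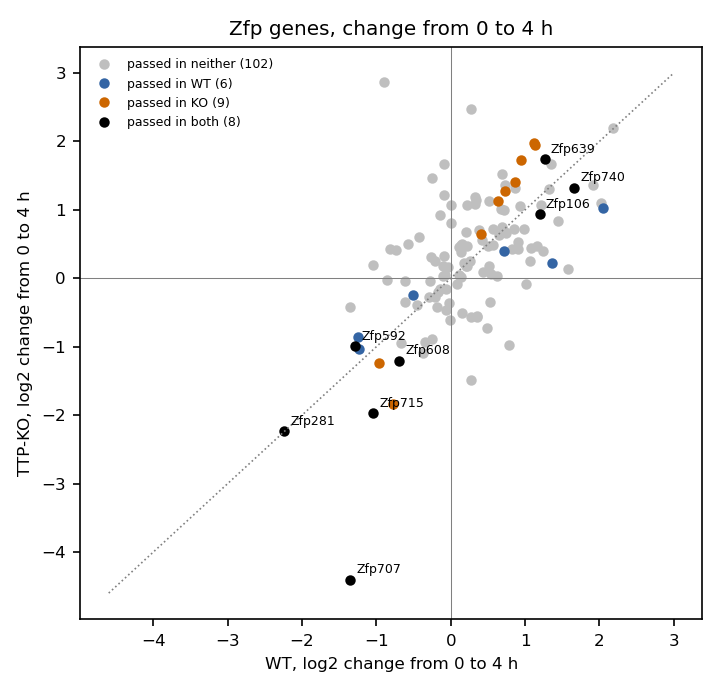
Log2 change from 0 to 4 h of the 125 Zfp genes in WT (horizontal) and KO (vertical), coloured by whether the change passed in neither (102), WT (6), KO (9) or both (8), with the line of equal change dotted. Zfp707 lies below it, at -1.36 in WT and -4.40 in KO.

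Few members differed between KO and WT beyond the spread between libraries. Of the 125 members, 0 were called at 0 h, against 0.526% of all genes, 0 at 1 h, against 0.502%, and 0 at 2 h, against 0.518% (edgeR quasi-likelihood; 3, 1 and 3 members had an unadjusted p under 0.05, and DESeq2 called 0, 0 and 1). At 4 h 1 was called, against 1.82%, and it was lower in KO (0.881% of all genes were called lower). The members' median log2 difference was -0.08, -0.03, -0.03 and -0.06 at 0, 1, 2 and 4 h, beside 0.00, -0.01, 0.00 and 0.00 for all genes. The interval of the difference was wide: its half-width had a median of 1.07, 1.08, 1.07 and 1.08, and it lay within a 2-fold change either way for 24, 35, 29 and 30 members. For the other members the interval reaches past a 2-fold difference. Zfp281 is among the better measured, with KO minus WT at 0.02 (95% interval -0.48 to 0.52) at 0 h and 0.02 (-0.49 to 0.53) at 4 h. For Zfp706 the difference was -0.25 (-0.56 to 0.06) at 0 h and 0.01 (-0.30 to 0.32) at 4 h, for Zfp91 -0.11 (-0.44 to 0.22) and 0.13 (-0.20 to 0.46), and for Zfp207 0.23 (-0.09 to 0.55) and -0.09 (-0.41 to 0.23).

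The member called at 4 h was Zfp707, at 7.43 ± 3.91 CPM in WT and 1.30 ± 1.31 in KO (-2.43 ± 0.52, adjusted p = 0.00496). The 3 KO libraries lay below the 3 WT libraries. At 0 h the order was the other way, at 19.0 ± 7.95 in WT and 29.2 ± 5.75 in KO (0.62 ± 0.47, adjusted p = 0.874). The call at 4 h held without any 1 library, with changes of -3.45 to -1.91. It was lost in an edgeR fit of only the groups compared (-2.49, adjusted p = 0.726). With KO 4 h A as the single KO library the difference was -1.51. Other members passed in single settings: without KO 4 h A, Zfp367 (-2.06), Zfp715 (-1.31) and Zfp871 (-0.86) were called at 4 h. Without KO 0 h A, Zfp260 (-3.24) and Zfp52 (-1.85) were called at 0 h, and with DESeq2 Zfp652 (1.29, adjusted p = 0.0218) at 2 h. The macrophage, dendritic and B cell, mast cell and, at 0 and 4 h, neutrophil marker sums given above do not overlap between the genotypes. Those of basophil and of NK and T cell markers do not overlap at 1 and 2 h. The part of these sums in the Zfp707 difference was not tested.

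**Figure D5:**
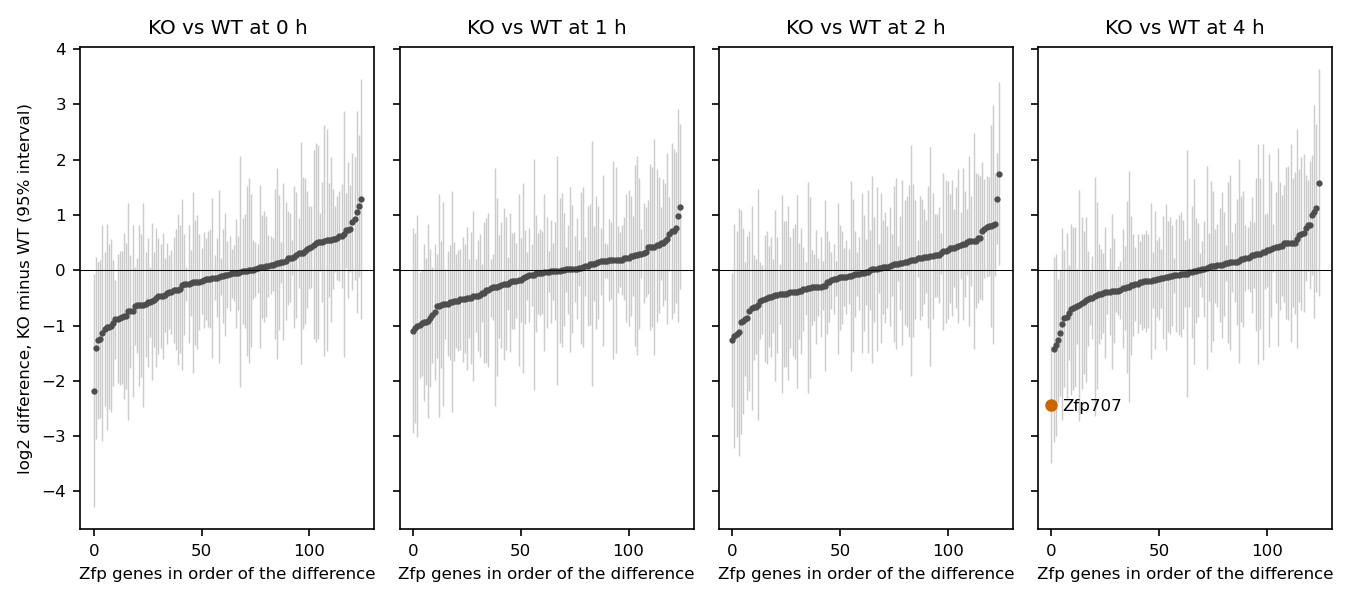
Log2 difference KO minus WT of the 125 Zfp genes at 0, 1, 2 and 4 h, in order of the difference within each panel, with 95% intervals as grey bars. Zfp707 at 4 h, marked, is at -2.43.

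Whether the change over time differed between the genotypes was tested directly. From 0 to 1 h, 0 members differed, against 0.0618% of all genes (edgeR; 2 at an unadjusted p under 0.05, and DESeq2 called 0). From 0 to 4 h, 1 member differed, against 0.193% of all genes, and 0.108% of all genes differed in its direction. It was again Zfp707, with a KO change below the WT change by 3.05 ± 0.70 (adjusted p = 0.0398). As the value uses the same 4 h libraries, it is not independent of the difference at 4 h. The call was lost without WT 0 h A, WT 0 h B, KO 0 h A, KO 0 h B, WT 4 h C, KO 4 h B or KO 4 h C, with differences of -3.15 to -2.52, with DESeq2 size factors in edgeR (-3.03, adjusted p = 0.0509) and with only the groups compared (-3.09, adjusted p = 0.306), and with KO 4 h A as the single KO library at that time it was -2.12 (adjusted p = 0.229).

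The proteins through which KRAB members act were given by a list of 36 symbols of co-repressor and heterochromatin genes. Tasor and Fam208a name the same gene, and 35 genes were tested. Their median log2 difference between KO and WT was -0.08, -0.09, -0.12 and -0.18 at 0, 1, 2 and 4 h. In WT 2 were higher and 4 lower at 4 h than at 0 h, with a median change of 0.21, and in KO 2 higher and 4 lower, with a median of 0.03, beside 16.7% of all genes called in WT and 18.1% in KO. Kdm1a, the histone demethylase of CoREST, was at 134 ± 17.5 CPM in WT at 0 h and 48.7 ± 12.2 at 4 h (-1.47 ± 0.19, adjusted p = 2.65e-08), and at 112 ± 10.6 and 35.9 ± 4.21 in KO (-1.64 ± 0.19, adjusted p = 1.9e-09). Rbbp7, a histone-binding subunit of several co-repressor complexes, changed by -1.36 ± 0.17, adjusted p = 1.1e-08 in WT and -1.23 ± 0.17, adjusted p = 1.04e-07 in KO, and Chd3, a remodeller of the NuRD complex, by -1.11 ± 0.17, adjusted p = 1.76e-06 and -0.88 ± 0.17, adjusted p = 8.83e-05. Daxx, a histone H3.3 chaperone partner, rose by 0.83 ± 0.25, adjusted p = 0.0128 and 0.97 ± 0.25, adjusted p = 0.00282. Trim28 itself had a log2 change of 0.46 ± 0.21, adjusted p = 0.148 in WT and 0.42 ± 0.21, adjusted p = 0.174 in KO, and Setdb1 one of 1.51 ± 0.73, adjusted p = 0.166 and 1.23 ± 0.72, adjusted p = 0.248.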

How the data were processed

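RNA from 24 libraries of mouse basophils was sequenced as 3' tags. The authors deposited expected counts of reads per gene, 12.8% of which are not whole; they were rounded to whole numbers before the tests. Adapters were trimmed with cutadapt 3.5 and reads aligned with STAR 2.7.10a to GRCm39, tools and build per the submitters' processing notes; handling of multi-mapped reads and strand is not given in the sources used here. Columns carry letters and the labels numbers, so columns were tied to groups only, and 144 other per-sample columns were not used here.

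Counts were analysed in R 4.3.3 with edgeR 4.0.16 (limma 3.58.1): TMM scaling, filterByExpr, quasi-likelihood tests with a mean for each of the 8 groups, and Benjamini-Hochberg adjustment over 12936 genes, called at 0.05. DESeq2 1.42.0, other scalings, no filter, fewer groups and left-out libraries were alternatives. Within groups, libraries differed beyond sampling noise, with a chi-square per degree of freedom of 30.2 to 78.7 between pairs of libraries. Intervals cover the fitted spread.

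Members, lists and tests were chosen with earlier results of these data known. Genes named by rule were the 3 most abundant, those at the edge of the read minimum, those called between genotypes or in the difference of changes, the called genes that moved most at 1 and 4 h without overlap, and a list of members with known roles; the other called members were added after their values were seen. Finger and KRAB patterns were read from GENCODE M21 coding sequences rather than RefSeq proteins, and the KRAB pattern was widened to either part of the box after its matches were seen.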

Additional observations from a re-analysis of the deposited data

Results flagged for a closer look

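The change of Zfp707 from 0 to 4 h differed between the genotypes: the KO change minus the WT change was -3.05 on the log2 scale (edgeR interaction test, adjusted p = 0.0398). The call was lost in 7 of 12 runs that left out 1 library, with only the groups compared (adjusted p = 0.306) and with DESeq2 size factors in edgeR (adjusted p = 0.0509). The KO libraries at 4 h held 48, 0 and 16 reads of this gene and the WT libraries 117, 75 and 200. KO 4 h B and C were also the 2 smallest libraries. The part of library size in this difference was not tested beyond leaving these libraries out.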

How the results depend on the processing

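Of 52 member calls, 22 were kept in each run that left out 1 library, 30 were lost in at least 1 and 0 reversed. With library size alone, counts of members called were 2 (WT 1 h), 14 (WT 2 h), 22 (WT 4 h), 15 (KO 2 h) and 32 (KO 4 h). With DESeq2 they were 4 (WT 1 h), 6 (KO 1 h), 16 (KO 2 h), 26 (KO 4 h) and 1 (KO vs WT at 2 h). With only the groups compared they were 1 (WT 1 h), 11 (KO 4 h), 0 (KO vs WT at 4 h) and 0 (difference of changes to 4 h). With DESeq2 size factors in edgeR the last was also 0. Without KO 4 h B and C they were 10 (KO 4 h), 0 (KO vs WT at 4 h) and 0 (difference of changes to 4 h). Leaving out 1 library gave 0 to 2 (KO vs WT at 0 h), 1 to 4 (KO vs WT at 4 h), 0 to 1 (WT 1 h), 5 to 8 (WT 2 h), 1 to 4 (KO 1 h), 4 to 8 (KO 2 h) and 0 to 1 (difference to 4 h). A minimum mean of 200 reads left 81 members. Between compared groups, libraries of the same letter showed no common deviation, with correlations of deviations from -0.057 to 0.051. Whether they share a mouse or culture cannot be told from this. With the letter as a replicate block 1 of the 52 calls was lost (Zfp516 in KO at 4 h), and 18 members were called in KO at 4 h. Depth limits the low members: a count of 0 in KO 4 h B allows 0.29 CPM by counting error alone. The spread between libraries was larger than counting error, so the true level may be higher. Zfp367, for one, had 0 reads in KO 4 h B and 16.5 and 8.78 CPM in KO 4 h A and C.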
